A study of Mus musculus with 6 samples.

Results

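Aminoacyl tRNA synthetases are the enzymes that load each tRNA with its amino acid. Their genes were taken from the array by gene symbol: a cytosolic enzyme is named by the letter of its amino acid and "ars", and a mitochondrial enzyme carries the same name with a final 2. Symbols such as Farsa, Farsb, Eprs and Ears2 were included. This gave 77 of the 45281 probes on the array and 35 of its 19057 named genes, 19 for cytosolic and 16 for mitochondrial enzymes. The rule used gene symbols and no measured value, though it was set with earlier results of these data known. A gene was tested where a probe was detected on all 3 arrays of at least 1 group, and 30 of the 35 genes were, 17 cytosolic and 13 mitochondrial.

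The RNA came from 21EM15, a single epithelial line derived from mouse lens, and was hybridised to 1-colour Illumina bead arrays. The 3 knockdown samples carried a lentivirus with a short hairpin RNA against Tdrd7, a gene for a Tudor domain protein of RNA granules. The 3 control samples carried a lentivirus with GFP, for which the labels name no hairpin, so effects of the construct and of reduced Tdrd7 cannot be told apart. Nothing in the labels ties the replicates to separate cultures, so each p-value reflects variation among these samples alone, and that variation may be technical.

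A synthetase joins an amino acid to the tRNAs for it in a reaction that uses ATP, and so sets the pairing of codon and amino acid. The enzymes fall into class I and class II, which have unrelated catalytic folds. Several cytosolic enzymes are held together in the multisynthetase complex, and the mitochondrial enzymes are made from nuclear genes and imported. When an amino acid runs short, uncharged tRNA activates the kinase GCN2 (Eif2ak4), and the transcription factor ATF4 then raises the transcription of many cytosolic synthetase genes along with genes of amino acid synthesis and transport. Gars and Kars each encode both the cytosolic and the mitochondrial enzyme for their amino acid.

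Of the 45281 probes, 37.2% to 38.8% were detected on each array, with median intensities of 72.6 to 82.6. Arrays keep the numbers of the scanner table, 4 to 6 for knockdown and 1 to 3 for control, and values are log2 intensities after background correction and quantile normalization unless stated. Knockdown array 4 stood apart from the rest: its mean correlation with the other arrays was 0.957 over the 9200 genes tested, and the other arrays were at 0.971 to 0.976. Tdrd7 was at 7.67, 7.46 and 8.42 on knockdown arrays 4, 5 and 6, against 9.38, 9.80 and 9.93 on control arrays 1, 2 and 3. Its log2 fold change was -1.85 ± 0.28 (SE, interval -2.50 to -1.20), with an unadjusted limma p of 0.00017 and an adjusted p of 0.76. It was thus lower on each knockdown array than on any control array, though not past the threshold over all genes. Of 9 lens epithelium markers, 4 were detected (Pax6, Cryab, Six3 and Gja1), whereas Foxe3, Cdh1, Cryaa, Pitx3 and Mab21l1 were not. Of the lens fibre, macrophage and endothelial markers on the array, 0 of 5, 0 of 4 and 0 of 4 were detected. Of 5 fibroblast markers, Pdgfra, Col1a1 and Dcn were detected.

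No synthetase gene differed between knockdown and control cells in limma at an adjusted p of 0.05. The count was 0 of 30 tested members, beside 0 of 9200 genes (0%) over the whole table. At an unadjusted p under 0.05 there was 1 member, the cysteinyl tRNA synthetase gene Cars, beside 303 of 9200 genes (3.29%). In RNA from whole cultures, fewer cells with a transcript and less of it per cell cannot be told apart. The fitted value was above 0 for 15 members and below 0 for 15, and over all genes it was above 0 for 52.3%. The median log2 fold change was 0.00075 over the 17 cytosolic genes and -0.03 over the 13 mitochondrial genes, where the median of all genes was 0.01. The range ran from -0.82 for Cars to 0.36 for Tars. The 95% confidence interval lay within 1 log2 unit of 0, a 2-fold change either way, for 28 of the 30 genes, with Cars and Cars2 outside. Its median half-width was 0.56 log2 units, which is a limit for 1 gene with no adjustment. After adjustment over 9200 genes larger differences were not called either, that of Tdrd7 included.

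**Figure D1:**
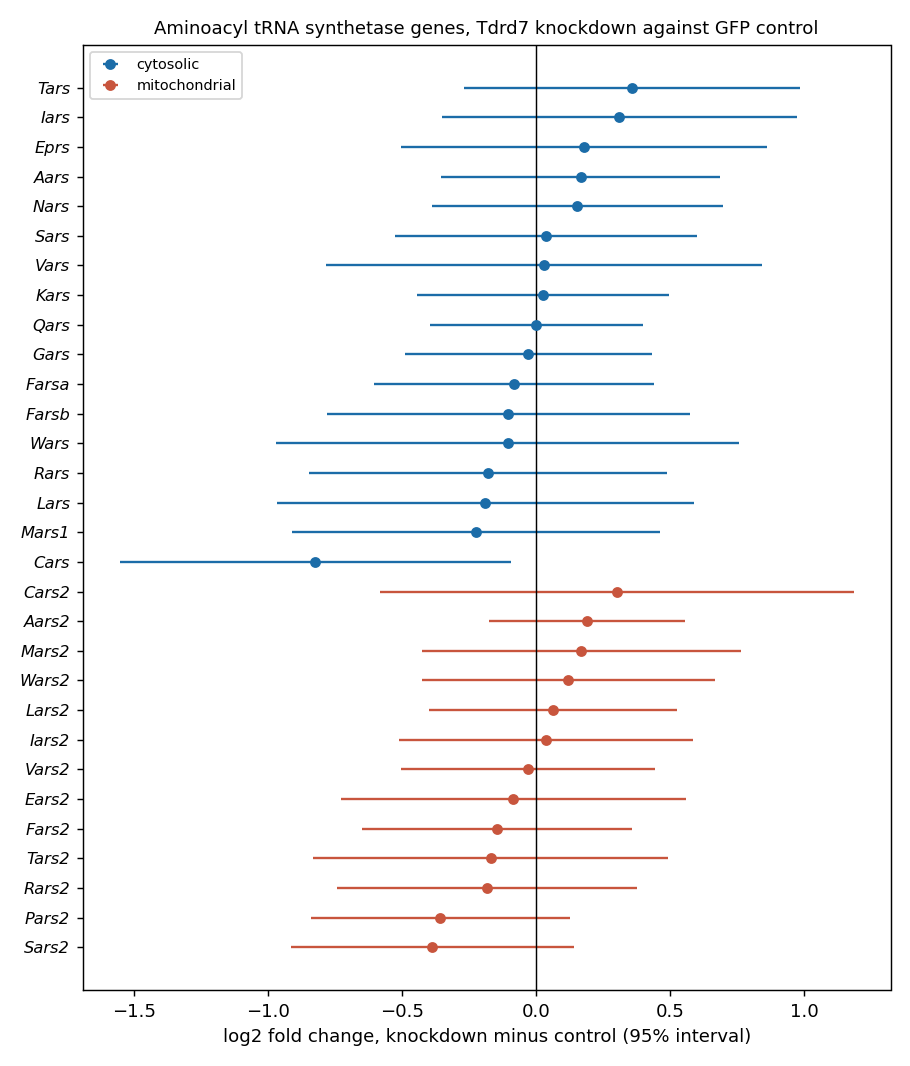
Log2 fold change (knockdown minus control, x axis) of the 30 tested synthetase genes, with 95% confidence intervals from the limma fit over 9200 genes. Cytosolic genes are in blue above, mitochondrial genes in red below, and the intervals of 29 genes cross 0, with Cars as the exception.

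The cytosolic genes farthest below control were those for the enzymes of cysteine, methionine and leucine. Cars was at 6.05, 5.76 and 6.71 on knockdown arrays 4, 5 and 6, against 7.54, 6.74 and 6.70 on control arrays 1, 2 and 3. Control array 1 was the highest and knockdown arrays 4 and 5 were the lowest, while array 6 at 6.71 lay within the control range, so the groups overlapped. The log2 fold change was -0.82 ± 0.32 (SE, interval -1.55 to -0.09), a 1.77-fold lower level, with an unadjusted limma p of 0.032 and an adjusted p of 0.998. It was between -1.09 and -0.55 when each array was left out in turn, smallest without control array 1. Other processing of all 6 arrays gave values from -0.865 with cyclic loess to -0.489 with array weights. With the authors' processed values it was -0.529. Mars1, for the enzyme that charges initiator and elongator tRNAs with methionine, was at 9.64, 10.63 and 10.43 in knockdown, against 10.23, 10.84 and 10.30 in control. Lars, whose product is also known as a leucine sensor upstream of mTORC1, was at 11.41, 12.78 and 12.46 in knockdown, against 12.29, 12.58 and 12.35 in control. In both genes array 4 alone was below all other arrays, and arrays 5 and 6 lay within or above the control range. Their log2 fold changes were -0.22 ± 0.30 and -0.19 ± 0.34 (SE), and without array 4 they were 0.08 and 0.22.

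The cytosolic genes farthest above control were those for the enzymes of threonine and isoleucine. Tars was at 9.12, 10.05 and 9.89 on knockdown arrays 4, 5 and 6, against 9.26, 9.58 and 9.15 on control arrays 1, 2 and 3. Arrays 5 and 6 were above the highest control array and array 4 was below the lowest. Its log2 fold change was 0.36 ± 0.27 (SE, interval -0.27 to 0.98, limma adjusted p = 0.998), and it was 0.64 without array 4 and 0.17 without array 5. Iars was at 10.10, 10.997 and 10.47 on knockdown arrays 4, 5 and 6, against 10.31, 10.54 and 9.79 on control arrays 1, 2 and 3, and only array 5 was above all control arrays. Its log2 fold change was 0.31 ± 0.29 (SE, interval -0.35 to 0.97, limma adjusted p = 0.998), and it was 0.07 without array 5, 0.10 without control array 3 and 0.52 without array 4. Aars, for the alanine enzyme, was at 0.17 ± 0.23, and Nars, for the asparagine enzyme, at 0.15 ± 0.23. The nearest to 0 was Qars, for the glutamine enzyme, at 11.88, 11.78 and 11.86 in knockdown, against 11.67, 12.03 and 11.83 in control. Its 6 arrays spanned less than those of any other cytosolic member, and its interval was -0.40 to 0.40. Gars (-0.03 ± 0.20) and Kars (0.03 ± 0.20), which supply both compartments, also lay close to 0.

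The promoters of 4 synthetase genes are shown because they hold the C/EBP-ATF response element through which ATF4 is known to act in the amino acid response. The windows run from 250 bases before to 50 after the annotated start, from RefSeq on GRCm38.p6, and 26 of the 35 genes had 1 or more, among them 12 of the 19 cytosolic ones. Capitals mark TTGCATCA or, where the element lies on the opposite strand, TGATGCAA. The window of Tars is chr15:11399609-11399908 on the minus strand, that of Iars is chr13:49681880-49682179, that of Aars chr8:111033592-111033891 and that of Yars chr4:129189653-129189952, all 3 on the plus strand.
Tars: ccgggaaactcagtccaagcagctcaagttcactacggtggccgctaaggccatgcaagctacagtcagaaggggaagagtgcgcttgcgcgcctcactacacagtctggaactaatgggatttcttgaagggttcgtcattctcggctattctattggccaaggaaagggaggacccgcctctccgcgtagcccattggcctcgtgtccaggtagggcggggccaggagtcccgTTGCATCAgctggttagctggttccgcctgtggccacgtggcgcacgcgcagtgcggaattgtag
Iars: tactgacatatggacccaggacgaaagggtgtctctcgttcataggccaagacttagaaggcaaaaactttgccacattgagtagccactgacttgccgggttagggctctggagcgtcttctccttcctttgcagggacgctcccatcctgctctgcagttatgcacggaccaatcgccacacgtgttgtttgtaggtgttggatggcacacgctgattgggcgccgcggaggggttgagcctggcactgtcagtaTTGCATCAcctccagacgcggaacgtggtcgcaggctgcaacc
Aars: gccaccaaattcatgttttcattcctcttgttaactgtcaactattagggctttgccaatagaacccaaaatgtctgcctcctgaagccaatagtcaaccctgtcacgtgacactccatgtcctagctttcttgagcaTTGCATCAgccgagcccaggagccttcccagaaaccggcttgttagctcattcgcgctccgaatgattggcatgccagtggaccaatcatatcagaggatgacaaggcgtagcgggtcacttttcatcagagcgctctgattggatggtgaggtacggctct
Yars: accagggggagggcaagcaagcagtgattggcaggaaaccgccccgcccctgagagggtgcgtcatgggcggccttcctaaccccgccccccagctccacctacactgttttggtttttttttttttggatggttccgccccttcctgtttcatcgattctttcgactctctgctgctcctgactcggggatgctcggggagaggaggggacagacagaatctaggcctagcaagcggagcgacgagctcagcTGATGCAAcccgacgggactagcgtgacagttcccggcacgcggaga

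The element began 15 bases before the start in Tars, 112 before it in Aars, 7 after it in Iars and 3 after it in Yars. Both strands were searched. It was in 4 of the 12 cytosolic synthetase windows (33.3%) and in 0 of the 15 mitochondrial ones, and 0.895% of all 32851 promoter windows of the same length held it. The shorter core TGCATCA, which overlaps it, was found in the same 4 synthetase genes and in 3.15% of all windows. The log2 fold changes of the 3 tested genes were 0.36 for Tars, 0.31 for Iars and 0.17 for Aars. None passed the test, and Aars was at -0.01 without control array 3. The other tested cytosolic genes, with no match or no window, ran from -0.82 for Cars to 0.18 for Eprs. A difference between genes with and without the element was not tested. Yars, for the tyrosine enzyme, was not detected on any array. A match describes these letters only and says nothing of binding in these cells.

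Among the mitochondrial genes, those for the enzymes of serine and proline were lowest relative to control. Sars2 was at 6.17, 6.32 and 6.85 on knockdown arrays 4, 5 and 6, against 6.70, 6.72 and 7.08 on control arrays 1, 2 and 3. Arrays 4 and 5 were below every control array and array 6 was not. The log2 fold change was -0.39 ± 0.23 (SE, interval -0.91 to 0.14, limma adjusted p = 0.998). Pars2 was at 5.89, 5.90 and 5.31 on knockdown arrays 4, 5 and 6, against 5.99, 6.09 and 6.09 on control arrays 1, 2 and 3, and all 3 knockdown arrays were below all control arrays, by the most on array 6. Its log2 fold change was -0.36 ± 0.21 (SE, interval -0.84 to 0.12, limma adjusted p = 0.998), and -0.16 without array 6. Aars2 was the only member entirely above control, at 5.38, 5.47 and 5.51 on knockdown arrays 4, 5 and 6, against 5.31, 5.28 and 5.21 on control arrays 1, 2 and 3, with a log2 fold change of 0.19 ± 0.16. Its probe was detected on 3 knockdown arrays and 1 control array, and lay close to background, where the lowest detected signals were 5.23 to 5.34. Aars2 thus passed the filter only through the group where it was higher, and its place above control is partly set by that filter. Pars2 and Aars2 were the 2 members of 30 whose groups did not overlap, beside 7.83% of all genes (4.33% above and 3.5% below control).

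Cars2, for the mitochondrial cysteine enzyme, had the highest fitted value of its compartment and the widest spread. It was at 6.26, 7.0 and 6.76 in knockdown, against 7.08, 5.55 and 6.49 in control. Control array 2 at 5.55 was far below the rest and control array 1 above them all, and the log2 fold change was 0.30 ± 0.38 (SE, interval -0.58 to 1.18). Without control array 2 it was -0.11. Mars2, which also serves the charging of the formylated initiator in mitochondria, was highest on array 4 and lowest on array 6, at 7.79, 7.62 and 6.97 in knockdown, against 7.38, 7.51 and 6.99 in control (0.17 ± 0.26). It was at 0.0044 without array 4 and 0.41 without array 6. Wars2 was detected on 3 knockdown and 2 control arrays, so it also passed the filter only through the knockdown group. It was at 5.37, 5.96 and 5.96 in knockdown, against 5.77, 5.33 and 5.84 in control (0.12 ± 0.24).

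Both compartments had a tested enzyme for 13 amino acids. The fitted values of a pair had the same sign for alanine, isoleucine, phenylalanine and arginine and opposite signs for cysteine, glutamate, leucine, methionine, proline, serine, threonine, valine and tryptophan. Of the 30 members, 23 changed sign when 1 array was left out. The medians of both compartments lay below the gene means on array 4 (cytosolic -0.31, mitochondrial -0.31) and above them on array 5 (0.32 and 0.24). The largest gap was for cysteine, with Cars at -0.82 and Cars2 at 0.30. For proline, Eprs, whose product charges both glutamate and proline in the cytosol, was at 0.18 ± 0.30 and Pars2 at -0.36. For threonine, Tars was at 0.36 and Tars2 at -0.17 ± 0.29. For arginine, the values were close, with Rars at -0.18 ± 0.29 and Rars2 at -0.18 ± 0.24. None of these values differed from 0 past the limma threshold, and differences within a pair were not tested.

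The level of each remaining pair on the 6 arrays shows how far the arrays of a group lay apart. Rars was at 9.78, 10.87 and 10.73 in knockdown, against 10.53, 10.71 and 10.66 in control. Rars2 was at 8.33, 9.09 and 9.002 in knockdown, against 9.11, 8.77 and 9.10 in control. In both, array 4 was the lowest of all 6 arrays. For valine, Vars was at 9.93, 11.10 and 10.72 in knockdown, against 10.14, 11.11 and 10.41 in control. Vars2 was at 9.01, 9.27 and 9.33 in knockdown, against 9.03, 9.56 and 9.12 in control. The cytosolic gene spanned over 1 log2 unit on the knockdown arrays, the mitochondrial gene far less. For tryptophan, Wars, which is known to be induced by interferon, was at 7.73, 9.27 and 8.95 in knockdown, against 8.72, 8.97 and 8.58 in control, with array 4 again the lowest.

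For glutamate, Eprs was at 8.88, 9.26 and 8.63 in knockdown, against 8.67, 9.31 and 8.25 in control. Ears2 was at 7.16, 8.24 and 7.68 in knockdown, against 7.97, 7.70 and 7.67 in control. Array 5 was the highest array for Ears2, and control array 2 for Eprs. The phenylalanine enzyme of the cytosol has an alpha subunit, Farsa, and a beta subunit, Farsb. Farsa was at 5.92, 5.57 and 6.37 in knockdown, against 5.99, 5.99 and 6.12 in control. Farsb was at 10.53, 11.69 and 11.15 in knockdown, against 11.19, 11.44 and 11.05 in control. The genes of the subunits went opposite ways on array 5, which was the lowest array for Farsa and the highest for Farsb, though Farsa was close to background. The single-chain mitochondrial enzyme gene Fars2 was at 10.56, 10.43 and 10.12 in knockdown, against 10.25, 10.85 and 10.45 in control (-0.15 ± 0.22).

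For the remaining amino acids with 2 tested genes, Aars was at 11.64, 12.004 and 11.75 in knockdown, against 11.62, 11.999 and 11.28 in control. Sars was at 10.19, 10.40 and 10.07 in knockdown, against 9.86, 10.67 and 10.02 in control (0.04 ± 0.24). For Aars, array 5 and control array 2 were about equally high, and for Sars control array 2 was the highest. Iars2 was at 10.12, 10.89 and 10.88 in knockdown, against 10.56, 10.63 and 10.59 in control (0.04 ± 0.24). Lars2 was at 7.86, 8.44 and 8.32 in knockdown, against 8.09, 8.12 and 8.22 in control (0.06 ± 0.20). Both had their lowest value on array 4. Tars2 was at 6.87, 7.71 and 6.87 in knockdown, against 7.14, 7.72 and 7.10 in control, with array 5 and control array 2 about equally high.

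The members were spread widely over the 3 knockdown arrays. The median range over these arrays was 0.76 log2 units for the synthetases and 0.52 for all genes, and over the 3 control arrays it was 0.43 and 0.42. Array 5 was above array 4 for 25 of 30 genes, beside 51.2% of all genes, and the median difference was 0.59 log2 units for the synthetases and 0.01 for all genes. On array 4, 24 members lay below their own mean over the 6 arrays, beside 49.4% of all genes, with a median deviation of -0.31. On array 5, 25 lay above it, beside 52.9% of all genes, with a median deviation of 0.27. Array 5 was the highest of the 6 arrays for 12 members (all genes, 19.7%), and array 4 the lowest for 15 (all genes, 26.0%). The low values on array 4 were not particular to the synthetases, as genes of tRNA charging shared them. Of the 15 tested genes that act beside them, given below, 13 were below their mean on array 4. In 12 of these array 5 was above array 4, with a median difference of 0.41 over the 15. The 25 tested amino acid response genes did not share the low values on array 4. There 12 were below their mean, beside 49.4% of all genes, with a median deviation of 0.07. Array 5 was above array 4 in 17 of the 25, beside 51.2% of all genes. The pattern on arrays 4 and 5 was noted after the values were seen and is given with no test. Without array 4 the median log2 fold change was 0.19 for cytosolic and 0.06 for mitochondrial genes, and without array 5 it was -0.07 and -0.09.

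**Figure D2:**
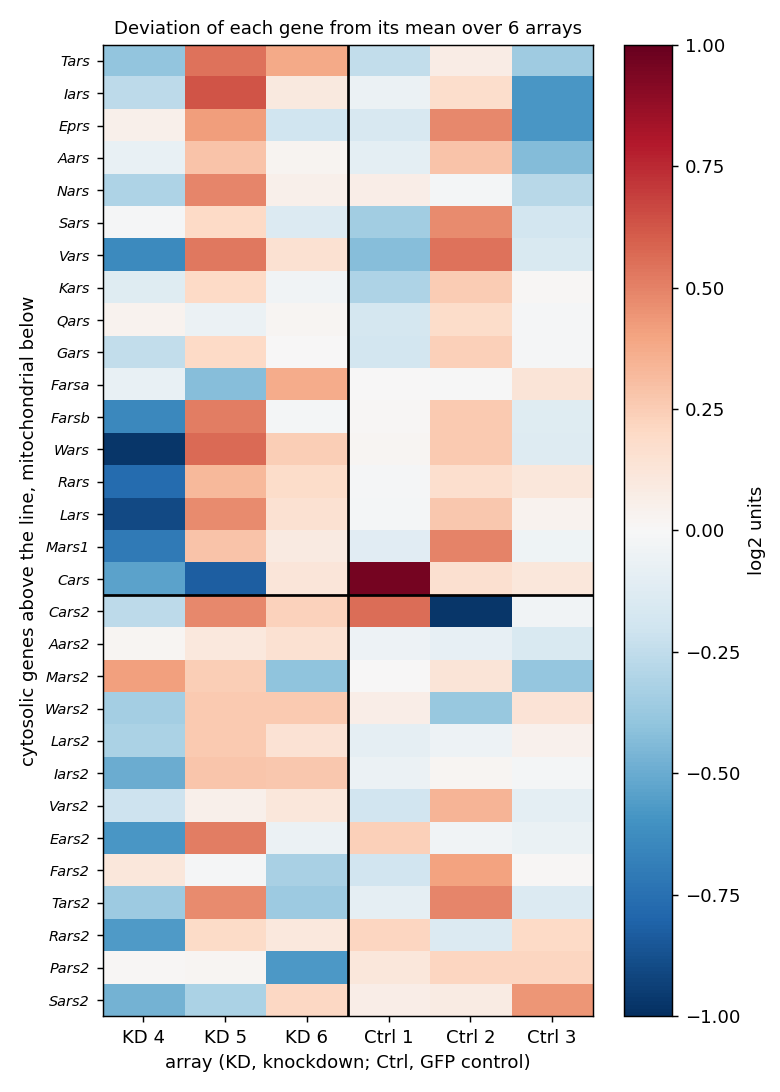
Deviation of each of the 30 tested genes from its own mean over the 6 arrays, in log2 units (red above, blue below), with knockdown arrays in the left 3 columns and control arrays in the right 3. Most genes are blue on knockdown array 4 (24 of 30) and red on knockdown array 5 (25 of 30), and Cars and Cars2 each have 1 extreme control array.

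The deviations on array 4 are given by enzyme class, with no test of a difference between classes. The 9 tested cytosolic class I genes had a median deviation of -0.64 on array 4, and 7 of them were below their mean, with Wars (-0.97), Lars (-0.90), Rars (-0.77), Mars1 (-0.71) and Vars (-0.64) lowest, while Eprs (0.05) and Qars (0.04) were not below their mean. The 8 cytosolic class II genes had a median of -0.18 there, and all 8 were below their mean. They ranged from -0.64 for Farsb to -0.02 for Sars, whose product charges serine and, as a first step, the tRNA of selenocysteine. The 13 mitochondrial genes had a median of -0.31 on array 4, with Mars2 (0.41), Fars2 (0.12), Aars2 (0.02) and Pars2 (0.01) above their mean. By class, the 8 mitochondrial class I genes were at -0.33 and the 5 class II genes at 0.01. On array 5 the medians were 0.42, 0.24 and 0.24 for the cytosolic class I, cytosolic class II and mitochondrial genes. The mitochondrial class I genes were at 0.26 there and the class II genes at 0.02. Among control arrays, array 2 had 15 of the 17 cytosolic genes above their mean (median 0.26), beside 49.3% of all genes, and 7 of the 13 mitochondrial genes (median 0.02). Array 4 also had the lowest mean correlation with the other arrays (0.957), and its part in these differences was not tested.

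**Figure D3:**
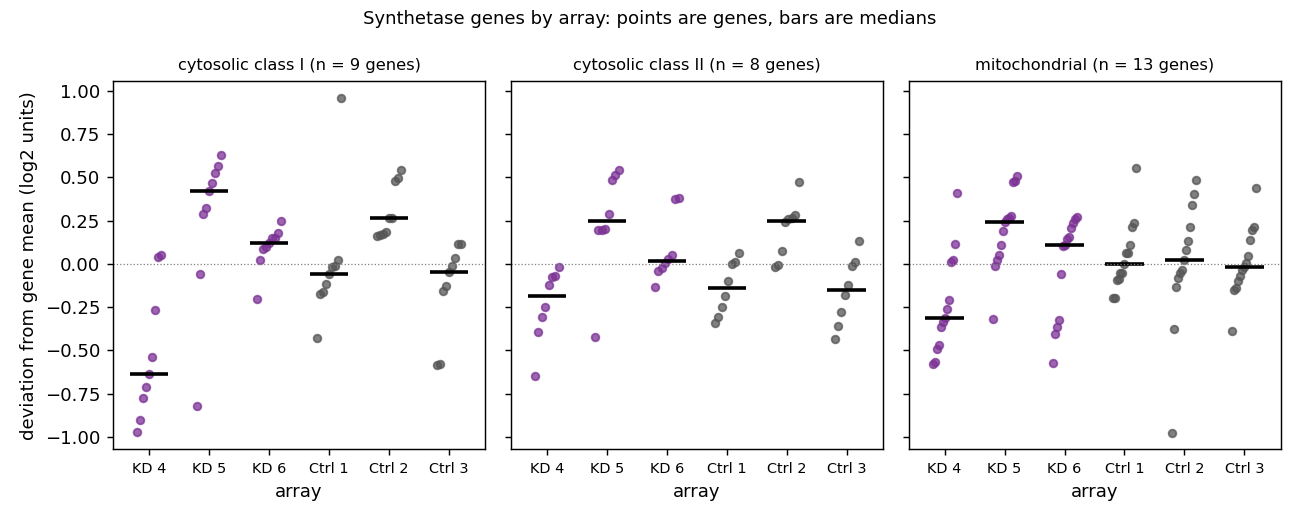
Deviation of each tested gene from its mean over 6 arrays (y axis, log2 units) by array (x axis, knockdown then control), for cytosolic class I, cytosolic class II and mitochondrial genes. Points are genes and bars are medians, and the cytosolic class I median of -0.64 on knockdown array 4 is the lowest of the 18 shown.

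For 17 genes more than 1 probe passed the detection filter, which allows the fold changes of different probes to be compared. In the fit of every probe by itself over 16349 probes, no synthetase probe passed the threshold (limma adjusted p = 1.00). The fitted values of a gene's probes had the same sign in 11 genes and differed in sign in 6, and they spanned under 0.2 log2 units in 11 genes. Close agreement was seen for Tars (0.36 and 0.44), Iars (0.31 and 0.21), Lars (-0.19 and -0.21), Farsb (-0.10 and -0.10), Mars2 (0.17 and 0.17) and the 3 probes of Rars2 (-0.18 to -0.16). For Cars the brightest probe, which the annotation ties to a cDNA clone record, gave -0.82. A dimmer probe tied to its RefSeq transcript gave -0.29 (interval -0.84 to 0.26). That probe was detected on 1 knockdown and 3 control arrays. It passed the filter only through the group where it was higher, so its sign is partly set by the filter. Another RefSeq probe of Cars was detected on 0 arrays. The 2 Pars2 probes gave -0.36 and 0.18, so the absence of overlap between groups held for 1 of them. The 3 Eprs probes ranged from -0.12 to 0.53. The Eprs probe at 0.53 was detected on 3 knockdown and 2 control arrays, so it also passed only through the group where it was higher. The 4 Wars probes ranged from -0.24 to 0.04, with array 4 the lowest for each Wars probe.

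**Figure D4:**
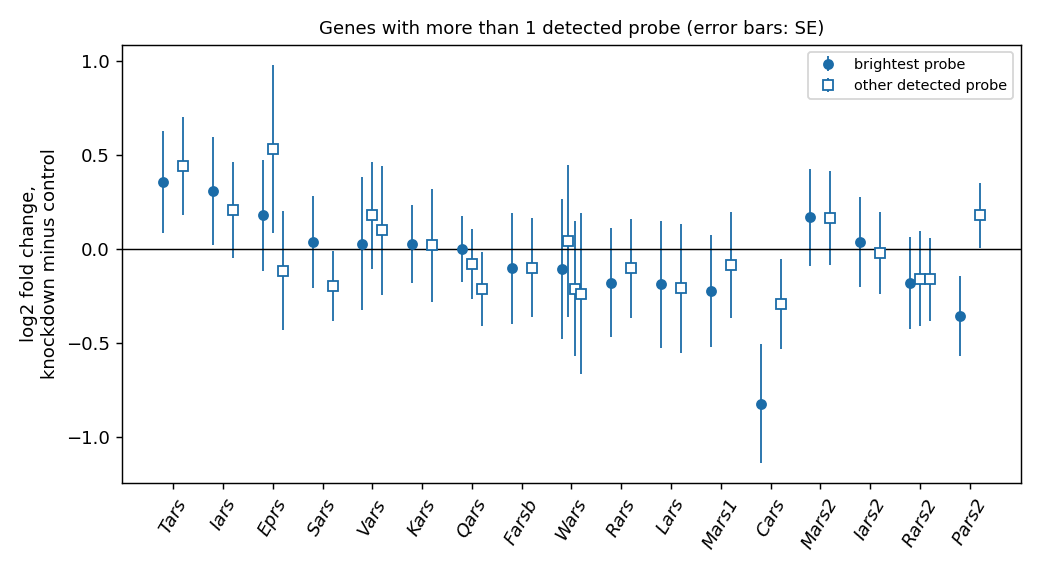
Log2 fold change (knockdown minus control, y axis) with SE for each detected probe of the 17 genes with more than 1 such probe. Filled circles are the brightest probe of a gene and open squares its other probes, which lie apart most for Eprs, Pars2 and Cars.

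No gene of the multisynthetase complex or its scaffold passed the test. Of the 7 complex enzymes on the array (Eprs, Iars, Lars, Mars1, Qars, Rars and Kars), 4 were above and 3 below control, with log2 fold changes from -0.22 for Mars1 to 0.31 for Iars, a median of 0.00075 and 0 past the threshold. The 10 tested cytosolic enzymes outside it had a median of -0.00093. The scaffold genes were at -0.07 ± 0.16 for Aimp1, -0.20 ± 0.26 for Aimp2 and -0.04 ± 0.29 for Eef1e1 (SE). Aimp1 varied little, at 11.54, 11.52 and 11.47 in knockdown, against 11.55, 11.66 and 11.54 in control. Aimp2 had its lowest value on array 4, at 7.69, 8.63 and 8.33 in knockdown, against 8.22, 8.51 and 8.53 in control. The mitochondrial amidotransferase, which makes glutaminyl tRNA in the absence of a mitochondrial glutamine enzyme, has subunit genes Qrsl1 (-0.05 ± 0.23), Gatb (-0.37 ± 0.35) and Gatc (-0.16 ± 0.23). Of the 15 tested genes of 18 that act beside the synthetases, such as tRNA exporters, editing factors and elongation factors, 4 were above and 11 below control. Over all genes 52.3% were above. Of these 15 genes 0 passed the threshold, and their median was -0.07.

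Genes of the amino acid response, which share ATF4 as a regulator with many synthetases, were not called either. Of 33 listed genes 25 were tested, 17 above and 8 below control, beside 52.3% of all genes above. The median log2 fold change was 0.12 (all genes, 0.01), and 0 passed the threshold. At an unadjusted limma p under 0.05 there were 2 of the 25, beside 303 of 9200 genes (3.29%). These 2 are named after their values were seen: Slc1a4, for a neutral amino acid transporter, at 0.55 ± 0.23, and Stc2, for the secreted protein stanniocalcin 2, at -0.57 ± 0.23 (SE). Atf4 itself was at 13.66, 13.58 and 13.55 in knockdown, against 13.65, 13.66 and 13.35 in control (0.05 ± 0.17). Its target Trib3, a pseudokinase, was at 9.92, 10.78 and 10.16 in knockdown, against 9.02, 10.95 and 8.90 in control, and Ddit3, for the factor CHOP, at 11.60, 9.97 and 10.13 in knockdown, against 9.46, 11.49 and 8.98 in control. Both were low on control arrays 1 and 3 and high on control array 2, so the spread within control was larger than the fitted differences of 0.66 ± 0.53 and 0.59 ± 0.67. With 1 array left out Trib3 ranged from 0.30 to 1.33 and Ddit3 from 0.07 to 1.34, both highest without control array 2. Asns, for asparagine synthetase, was at 12.24, 13.47 and 12.89 in knockdown, against 12.50, 13.59 and 12.89 in control (-0.13 ± 0.37). It had its lowest value on array 4 and its highest values on array 5 and control array 2. Among the synthetases Farsb, Gars, Lars, Mars1, Vars and Wars had the same. Chac1, a glutathione-degrading enzyme, was at 0.09 ± 0.34, Sesn2, a leucine-binding inhibitor of mTORC1, at 0.12 ± 0.26, and the transporter subunit gene Slc3a2 at 0.12 ± 0.22. The serine synthesis genes Phgdh and Psat1 were at -0.47 ± 0.35 and -0.03 ± 0.26, and Phgdh was at -0.08 without array 4. The cystine transporter gene Slc7a11 was at 4.89, 7.75 and 6.98 in knockdown, against 6.23, 5.96 and 6.17 in control (0.42 ± 0.62) and was detected on 2 of the 3 knockdown arrays. Eif2ak4 was on the array but was not tested, as it did not pass the detection filter.

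The synthetases listed as ATF4 responsive were compared with the other cytosolic ones by their values alone. The 11 tested of 12 (Aars, Cars, Eprs, Gars, Iars, Lars, Mars1, Nars, Sars, Tars and Wars) had a median log2 fold change of 0.04, with 6 above and 5 below control. The 6 tested others (Farsa, Farsb, Kars, Qars, Rars and Vars) had a median of -0.04, with 3 above and 3 below. On array 5, 10 of the 11 and 4 of the 6 were above their mean (all genes, 52.9%). On array 4, 10 of the 11 and 5 of the 6 were below their mean (all genes, 49.4%).

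The 5 synthetase genes that were not tested were Hars, Hars2, Nars2, Yars and Yars2. Their 7 probes had unnormalized intensities between 59.6 and 111.9, and probes of Hars, Hars2, Yars and Yars2 were detected on 0 arrays. The Nars2 probe, for the mitochondrial asparagine enzyme, was detected on 2 knockdown and 2 control arrays. Since cells need the cytosolic histidine and tyrosine enzymes, a lack of signal from these probes does not show that the transcripts were absent. Tarsl2, for a second cytosolic threonine enzyme now named Tars3, stands under its older symbol in the annotation and so was not among the 35. It was at 6.96, 7.14 and 7.11 in knockdown, against 7.05, 7.66 and 7.81 in control, a log2 fold change of -0.44 ± 0.23 (SE, interval -0.96 to 0.09, limma adjusted p = 1.00), while Tars was at 0.36.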

How the data were processed

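The authors deposited a scanner table with a linear intensity and a detection p-value per probe and array, per the file headers, and a second table of processed intensity values. Scanner settings and processing steps were not given in the sources used here. Each processed column was linear in 1 scanner column from its own group, with residuals up to 0.011. Scanner column names show the group but no replicate number. Intensities were background corrected, quantile normalized and put on log2 by neqc of limma 3.58.1 (R 4.3.3), with an offset of 16, which understates changes of dim genes. Probes detected (p under 0.05) on all 3 arrays of a group entered, 16349 of 45281. The brightest probe with 1 symbol stood for a gene, giving 9200 genes. Groups were compared by lmFit and eBayes, with Benjamini-Hochberg adjustment over all genes at 0.05. Array number limits the precision. The members, lists and naming rule were chosen with earlier results of these data known. The rule named Tdrd7, the 8 members with the largest differences, tested pairs and 18 fixed genes. Genes listed but without a probe under the symbol used, Slc7a5 among them, were not analysed here. The fit was tested on simulated data with errors drawn independently for each gene and array, which does not cover deviations shared by genes on an array. Alternatives were other background corrections, normalizations, filters, probe rules, variance settings, array weights, the authors' values, a replicate block and leaving out each array. Figures used matplotlib 3.10.9.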

Additional observations from a re-analysis of the deposited data

How the results depend on the processing

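No synthetase gene passed the threshold under any of the 18 alternatives, and the lowest limma adjusted p of a member was 0.48. The count of all genes past it was 0 in each, except 1 when every probe was fitted by itself, and that probe has no single gene symbol in the annotation. Of the 30 tested members 7 kept their sign in every alternative that gave them a value (Aars2 and Wars2 have none where detection on all 6 arrays was required), while 23 turned when 1 array was left out, most often array 4 (10 genes). None was called, and the cause was not tested. Leaving out each array in turn gave ranges of -0.123 to 0.193 for the cytosolic and -0.0917 to 0.0643 for the mitochondrial median, and of -0.0104 to 0.348 for Aars, -0.405 to 0.0631 for Aimp2, -0.431 to 0.181 for Asns, -0.0555 to 0.101 for Atf4, -0.11 to 0.655 for Cars2, -0.297 to 0.386 for Chac1, -0.361 to 0.183 for Ears2, -0.339 to 0.174 for Eef1e1, -0.0701 to 0.462 for Eprs, -0.281 to 0.0192 for Fars2, -0.29 to 0.109 for Farsa, -0.386 to 0.193 for Farsb, -0.136 to 0.086 for Gars, -0.604 to 0.0119 for Gatb, -0.303 to 0.0661 for Gatc, -0.0917 to 0.292 for Iars2, -0.121 to 0.16 for Kars, -0.472 to 0.215 for Lars, -0.0528 to 0.235 for Lars2, -0.424 to 0.0751 for Mars1, -0.0509 to 0.346 for Nars, -0.31 to 0.18 for Psat1, -0.086 to 0.093 for Qars, -0.202 to 0.159 for Qrsl1, -0.386 to 0.161 for Rars, -0.324 to 0.0557 for Rars2, -0.126 to 0.282 for Sars, -0.073 to 0.351 for Sesn2, -0.0837 to 0.234 for Slc3a2, -0.181 to 1.25 for Slc7a11, -0.449 to 0.0301 for Tars2, -0.229 to 0.353 for Vars, -0.136 to 0.131 for Vars2, -0.416 to 0.352 for Wars, -0.0399 to 0.318 for Wars2. The sign also turned without normalization between arrays for Gars (0.0187), Psat1 (0.0295), Aimp1 (0.00535), Eef1e1 (0.0313), Vars2 (0.0258), with 75th percentile scaling for Gars (0.000796), Psat1 (0.0117), Eef1e1 (0.0134), Vars2 (0.00793), with cyclic loess for Gars (0.000277), Psat1 (0.000569), with the authors' processed values for Qars (-0.0441), Kars (-0.00587), with probes averaged per gene for Qars (-0.098), Sars (-0.081) and with array weights for Gars (0.0357), Asns (0.0466), Psat1 (0.0579), Lars (0.0511), Farsb (0.0872), Rars (0.00622), Mars1 (0.0269), Vars2 (0.112), Qrsl1 (0.0659), Wars (0.229), Ears2 (0.0384), Farsa (0.0239). The replicate block, fitted on the authors' values, gave 0 genes past the threshold and turned Qars (-0.0441), Kars (-0.00587). Deviations of samples with the same number correlated at -0.10, 0.13 and 0.59, which did not all exceed 0.1, and the samples were treated as unpaired. Slide could not be tested, as the files give none. Dim probes such as those of Aars2, Pars2 and Wars2 lay near the detection limit.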
